A study of Mus musculus with 4 samples.

Results

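Heat shock proteins and their DnaJ co-chaperones were measured in tumours grown in immunodeficient mice from MDA-MB-231, an established triple-negative human breast carcinoma line. The rule took every feature of the array whose single gene symbol names an HSP70 (Hspa), small heat shock protein (Hspb), HSP90, mitochondrial chaperonin (Hspd1, Hspe1), HSP110 (Hsph1), heat shock factor (Hsf) or DnaJ protein (Dnaja, Dnajb, Dnajc). This gave 160 of 45220 features, or 141 of 31587 tested probes once repeated spots were combined, for 74 of 19087 genes. The sunitinib group was 2 samples treated at 40 mg/kg/day with sunitinib, an inhibitor of VEGF, PDGF and related receptor tyrosine kinases, and the vehicle group was 2 samples given vehicle. The labels number the samples of a group without stating that they are separate tumours or animals. All 4 samples were total RNA of xenograft tissue (0.5 µg, RIN number 9) on single-colour Cy3 Agilent arrays with mouse probes. The series title speaks of treatment withdrawal, and the labels give no time of sampling relative to the last dose. The tumour cells are of 1 human line and the host was immunodeficient, so that the signal is that of host cells plus whatever tumour RNA cross-hybridised. Chaperone genes are highly conserved between mouse and human, and the share of human signal in these probes was not tested. Less RNA per cell and fewer cells of a type cannot be told apart in such bulk samples.

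Chaperones hold other proteins in a foldable state. HSP70 proteins bind and release unfolded stretches in a cycle driven by ATP, which DnaJ (HSP40) proteins start by delivering the client and stimulating hydrolysis, and which HSP110 proteins reset by exchanging the nucleotide. HSP90 takes over partly folded clients, many kinases among them, the small heat shock proteins hold unfolded proteins without ATP, and HSP60 with HSP10 forms a folding chamber in mitochondria. Heat shock factor 1 induces the cytosolic members under stress, while the unfolded protein response of the endoplasmic reticulum (ER) induces the members of that compartment.

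Cytosolic, mitochondrial and ER chaperones are known to be induced through stress elements in their promoters. The promoters of 5 members described in full are shown because they hold sequence matches to these elements. They run 250 bases up to an annotated start, 5′ to 3′ on the gene's strand, from RefSeq (GRCm38.p6), in lower case with the element in capitals. Capitals mark heat shock elements in the first 3 (chr17:34972157-34972406, minus strand, for Hspa1a, chr5:149636337-149636586, minus strand, for Hsph1, and chr1:55087933-55088182, minus strand, for Hspd1) and ER stress elements in the last 2 (chr2:34771840-34772089, plus strand, for Hspa5, and chr10:86705445-86705694, minus strand, for Hsp90b1).
Hspa1a: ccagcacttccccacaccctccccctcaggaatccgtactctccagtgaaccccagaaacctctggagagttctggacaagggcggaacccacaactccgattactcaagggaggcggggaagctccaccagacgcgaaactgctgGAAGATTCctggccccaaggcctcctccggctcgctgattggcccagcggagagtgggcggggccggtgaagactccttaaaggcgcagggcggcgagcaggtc
Hsph1: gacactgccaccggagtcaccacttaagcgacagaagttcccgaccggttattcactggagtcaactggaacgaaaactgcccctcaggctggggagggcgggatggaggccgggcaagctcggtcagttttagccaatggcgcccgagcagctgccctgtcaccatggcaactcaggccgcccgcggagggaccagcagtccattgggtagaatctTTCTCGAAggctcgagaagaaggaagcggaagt
Hspd1: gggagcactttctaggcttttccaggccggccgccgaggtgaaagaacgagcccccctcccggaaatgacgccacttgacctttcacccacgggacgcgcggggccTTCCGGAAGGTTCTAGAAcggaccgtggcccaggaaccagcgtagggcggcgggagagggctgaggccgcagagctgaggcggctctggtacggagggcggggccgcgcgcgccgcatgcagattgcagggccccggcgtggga
Hspa5: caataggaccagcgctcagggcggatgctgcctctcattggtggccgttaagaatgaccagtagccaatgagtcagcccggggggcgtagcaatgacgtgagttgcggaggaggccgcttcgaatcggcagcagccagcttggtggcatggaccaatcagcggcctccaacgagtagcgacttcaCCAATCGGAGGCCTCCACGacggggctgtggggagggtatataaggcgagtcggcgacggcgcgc
Hsp90b1: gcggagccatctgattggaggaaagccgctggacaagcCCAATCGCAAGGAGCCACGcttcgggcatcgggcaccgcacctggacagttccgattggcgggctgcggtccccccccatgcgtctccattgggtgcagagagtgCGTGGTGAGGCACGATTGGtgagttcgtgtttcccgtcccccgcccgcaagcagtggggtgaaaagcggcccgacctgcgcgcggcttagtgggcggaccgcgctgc
The heat shock element was searched on both strands as 2 units (GAANNTTC or TTCNNGAA) and as 3 alternating units of GAA and TTC with 2 bases between neighbours, a form that contains the 2-unit one. Of the 74 genes, 60 were matched in the promoter table. The 2-unit form, the only one found for Hspa1a and Hsph1, stood in the windows of 13 of these 60 (21.7%), against 14.6% of 27018 genes in the table. The 3-unit form stood in those of Dnajb6, Hspd1 and Hspe1, against 0.514% of all genes. Hspd1 and Hspe1 lie head to head, and the run in capitals in the Hspd1 promoter falls in both windows. The ER stress element (CCAAT and CCACG with 9 bases between, both strands) stood in those of Hspa5, Hsp90b1 and Dnajc3, against 0.13% of all genes. A match describes letters in the window and says nothing of binding.

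The comparison asked whether sunitinib treatment went with other chaperone levels than vehicle, for each class and on each slide, since each slide carried 1 array of each group. Values are the authors' normalized log2 intensities, differences are sunitinib minus vehicle on that scale, and a gene stands for its brightest probe unless other probes are named. The family showed no common shift. The median difference over the 74 genes was 0.012, against 0.005 over all genes, with medians of -0.015 on slide 1 and 0.005 on slide 2. The extremes were -1.19 for Hspa8 and 0.535 for Hspa5. In limma 0 of the 74 genes passed an adjusted p of 0.05, where 2 of all genes (0.0105%) did, and the smallest adjusted p of a member was 0.336. At an unadjusted p under 0.05, 4 members read higher (Hspd1, Hspa4l, Dnajc16, Dnajc2) and 6 lower (Hsph1, Hspa8, Dnajc30, Dnajc3, Dnajb1, Dnajb2). These are 5.41% and 8.11% of the members, against 8.38% and 6.28% of all genes, so that neither share stood far from the background. Without vehicle replicate 1 the median difference over the members was 0.02, against 0.01 over all genes. Both sunitinib arrays lay above both vehicle arrays for 20 members and below them for 17 (27.0% and 23.0%, against 25.9% and 22.3% of all genes). On both slides 24 members were higher and 23 lower (32.4% and 31.1%, against 32% and 27.9% of all genes). An exact two-sided permutation test of 2 arrays against 2 cannot go below p = 0.333.

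**Figure D1:**
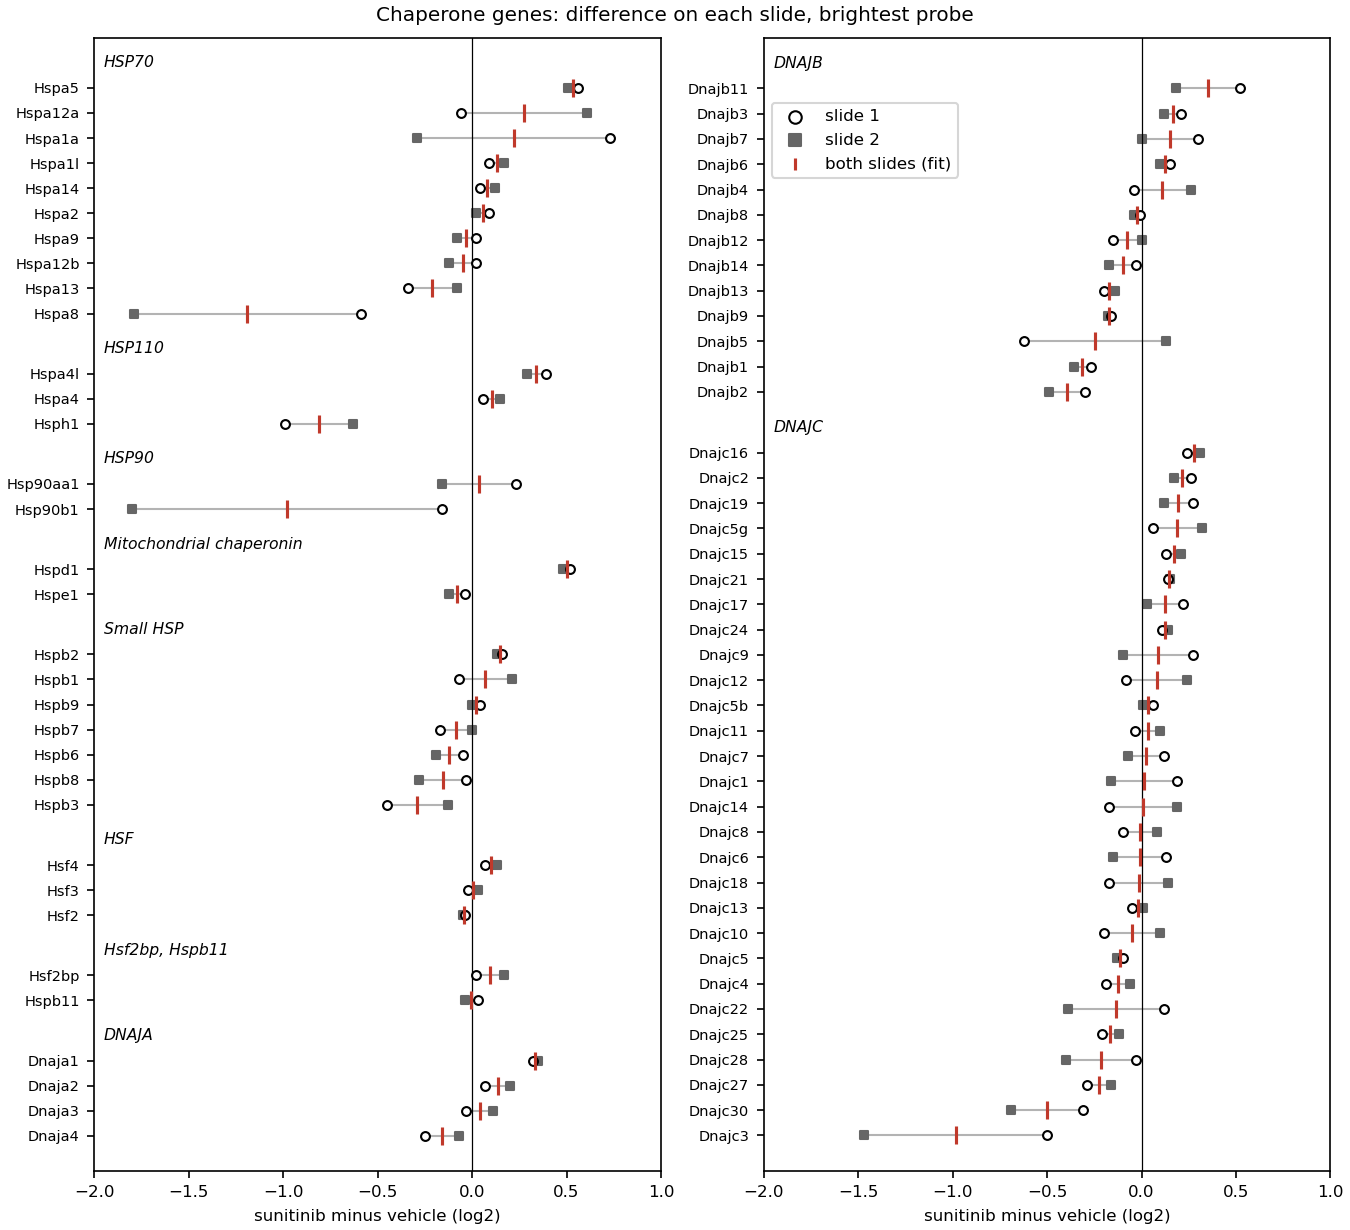
Sunitinib minus vehicle difference (log2, x axis) of the brightest probe of each of the 74 chaperone genes, grouped by class, on slide 1 (open circle), slide 2 (grey square) and over both (red bar). Hspa8, Hsph1, Hsp90b1 and Dnajc3 lie farthest to the left, and for Hspa8, Hsp90b1 and Dnajc3 the distance is larger on slide 2.

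Array-wide facts bear on these values. The arrays correlated across features at r = 0.98 within the sunitinib group, 0.984 within the vehicle group, and 0.97 and 0.969 between the arrays sharing slide 1 and slide 2. Xist, the RNA of the inactive X chromosome, stood at 8.97 and 8.96 in sunitinib samples and at 12.19 and 12.26 in vehicle samples (limma adjusted p = 0.0064), and the Y-linked Eif2s3y at 10.21 and 10.02 in sunitinib samples and 8.46 and 8.58 in vehicle samples. They part the arrays as treatment does, so that every difference here is also one between arrays with low and high Xist, and the 2 cannot be told apart. Position on the slide followed treatment too, with sunitinib on array 2 and vehicle on array 1 of both slides, and cannot be told apart from it either. Of the members, 25 had a mean below 9.08, the median over all genes. The highest member value was 15.2, below the highest value on any of the arrays (at least 16.08).

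HSP70 genes took both directions. Their median difference was 0.068 over 10 genes (0.03 on slide 1, -0.03 on slide 2). On both slides 4 were higher and 2 lower, against 32% and 27.9% of all genes. Hspa5, the ER HSP70 known as BiP, read 14.74 and 14.24 with sunitinib and 14.18 and 13.73 with vehicle. Both sunitinib values lay narrowly above both vehicle values, and the difference was 0.535 (SE 0.23, limma adjusted p = 0.38). It was nearly equal on the slides, at 0.56 and 0.51, and 0.285 without sunitinib replicate 1 or 0.31 without vehicle replicate 2. Hspa9, the mitochondrial HSP70 mortalin, read 11.96 and 11.89 with sunitinib and 11.94 and 11.97 with vehicle on its brightest probe, where the groups overlapped. Its other probe read 11.22 and 11.32 under sunitinib against 10.81 and 10.96 under vehicle (difference 0.385, SE 0.10, adjusted p = 0.336), with no overlap.

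Hspa8, the constitutive cytosolic HSC70 that also uncoats clathrin vesicles, gave opposite answers on its probes. The brighter read 13.49 and 12.54 in sunitinib samples against 14.08 and 14.33 in vehicle samples (difference -1.19, SE 0.32, adjusted p = 0.336). The other, almost as bright, read 13.39 and 13.56 in sunitinib arrays against 13.26 in both vehicle arrays (difference 0.215, SE 0.10, adjusted p = 0.389). On both probes the groups did not overlap, so that no direction can be given for the gene. The difference of the brighter probe was -0.59 on slide 1 and -1.79 on slide 2, and -0.715 without sunitinib replicate 2.

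Hspa1a, the stress-inducible HSP70, had vehicle arrays far apart, and which of them decided the difference varied with the probe. Its coding sequence is nearly identical to that of Hspa1b, which had no probe of its own here, so that its probes may read both. The brightest of its 4 probes read 13.09 and 13.06 with sunitinib and 12.36 and 13.35 with vehicle (difference 0.22, SE 0.32, adjusted p = 0.767). Here vehicle replicate 1 was the low array, and the difference was -0.275 without it and 0.715 without vehicle replicate 2. The next read 11.27 and 11.25 under sunitinib against 11.75 and 13.38 under vehicle (difference -1.305, SE 0.52, adjusted p = 0.371). The third read 11.00 and 10.99 in sunitinib samples against 11.07 and 13.06 in vehicle samples (difference -1.07, SE 0.64, adjusted p = 0.474). On the second and the third probe vehicle replicate 2 stood far above the other 3 arrays (slide 2 differences -2.13 and -2.07), and vehicle replicate 1 lay closer to the sunitinib arrays (slide 1 differences -0.48 and -0.07). The dimmest probe read 9.75 and 9.91 in sunitinib arrays against 9.40 and 9.99 in vehicle arrays, ordered across the arrays like the brightest in that vehicle replicate 1 was lowest and vehicle replicate 2 highest. The sunitinib samples lay close together on all 4 probes.

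**Figure D2:**
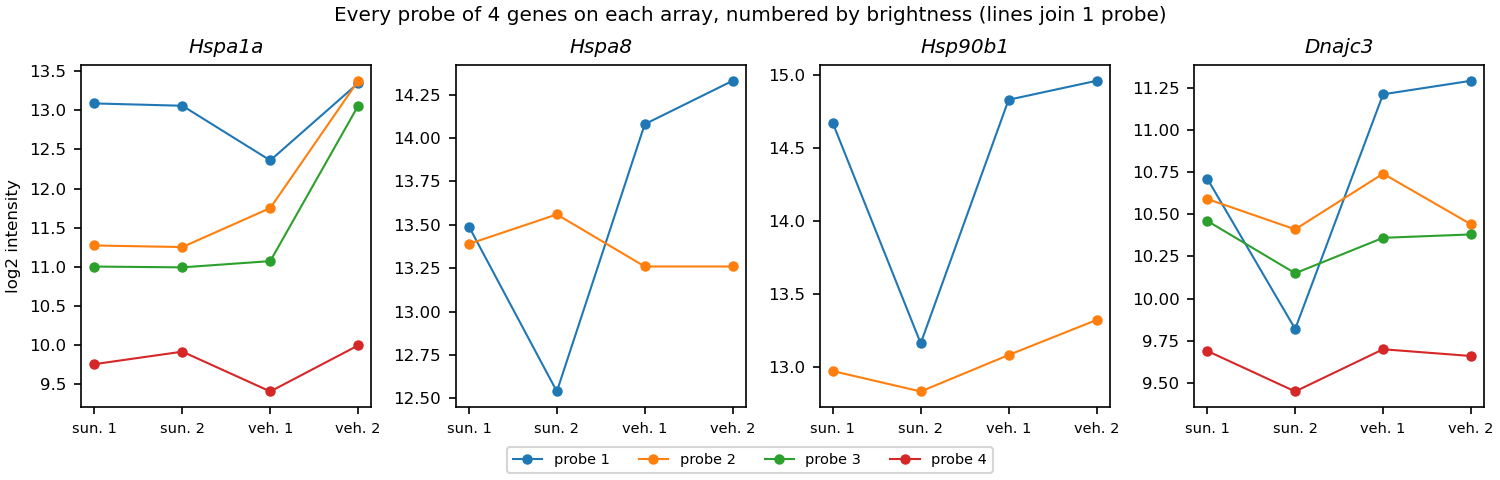
Log2 intensity (y axis) of every probe of Hspa1a, Hspa8, Hsp90b1 and Dnajc3 on the 4 arrays (x axis, sunitinib 1 and 2, then vehicle 1 and 2), with lines joining the values of 1 probe. Probes 2 and 3 of Hspa1a stand high in vehicle replicate 2 alone, and probe 1 of Hspa8, Hsp90b1 and Dnajc3 dips in sunitinib replicate 2, to 12.54, 13.16 and 9.82, where the other probes of these genes do not follow to the same extent.

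The other HSP70 genes differed little. Hspa13, the microsomal member, read 10.23 and 10.27 in sunitinib samples against 10.57 and 10.35 in vehicle samples (difference -0.21, SE 0.11), and Hspa14, a ribosome-associated member, differed by 0.08. The atypical Hspa12a and the endothelial Hspa12b differed by 0.275 and -0.05 with overlapping groups. Hspa12a lay below the median level of all genes. Its difference was -0.06 on slide 1 and 0.61 on slide 2, and its other probes differed by 0.11, 0.155 and -0.38. Hspa2 and Hspa1l, best known from the testis, differed by 0.055 and 0.13, the second of them below the median level of all genes.

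Among the HSP110 nucleotide exchange factors, Hsph1 (HSP105) had the smallest p of all members, on the only probe it had. It read 10.46 and 10.74 with sunitinib and 11.45 and 11.37 with vehicle. Both sunitinib arrays lay below both vehicle arrays, farther than the arrays of a group lay apart, and the difference was -0.81 (SE 0.12, limma adjusted p = 0.336). It was -0.99 on slide 1 and -0.63 on slide 2, and -0.95 to -0.67 without any 1 array. Hspa4 (APG-2) read 10.44 and 10.54 with sunitinib and 10.38 and 10.39 with vehicle (difference 0.105). Hspa4l (APG-1) read 9.65 and 9.51 under sunitinib against 9.26 and 9.22 under vehicle (difference 0.34, SE 0.09, adjusted p = 0.336), but its next probe differed by -0.32 (SE 0.12), and the other 2 by 0.175 and 0.30. The class median of 0.105 (0.06 on slide 1, 0.15 on slide 2) therefore spans members with opposite signs.

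HSP90 genes were represented by 2 members, since Hsp90ab1 was not analysed here. Their median difference was -0.472 (0.035 on slide 1, -0.98 on slide 2). Hsp90aa1, the inducible cytosolic form, read 12.41 and 12.69 in sunitinib samples against 12.18 and 12.85 in vehicle samples, which overlapped (difference 0.035, SE 0.24, adjusted p = 0.957). Hsp90b1, the ER form GRP94, read 14.67 and 13.16 with sunitinib and 14.83 and 14.96 with vehicle (difference -0.98, SE 0.49, adjusted p = 0.418). The difference was -0.16 on slide 1 and -1.8 on slide 2. The low value was that of sunitinib replicate 2, without which the difference was -0.225. Its other probe read 12.97 and 12.83 in sunitinib samples against 13.08 and 13.32 in vehicle samples (difference -0.30, SE 0.12, adjusted p = 0.367), lower in both sunitinib arrays as well.

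The partners of the mitochondrial chaperonin, Hspd1 (HSP60) and Hspe1 (HSP10), read differently. Their median difference was 0.21 (0.24 on slide 1, 0.18 on slide 2). Hspd1 read 15.20 and 15.05 under sunitinib against 14.68 and 14.57 under vehicle, with a clear gap between the groups. The difference was 0.50 (SE 0.10, limma adjusted p = 0.336), at 0.52 on slide 1 and 0.48 on slide 2. The second Hspd1 probe read 12.67 and 13.14 in sunitinib samples against 12.39 and 12.47 in vehicle samples (difference 0.475, SE 0.17, adjusted p = 0.354). Hspe1, transcribed from the same intergenic region, read 11.54 and 11.58 in sunitinib arrays against 11.58 and 11.70 in vehicle arrays, which touched at 11.58 (difference -0.08, SE 0.09, adjusted p = 0.684). Over the 7 mitochondrial members the median was 0.04, with 3 higher and 1 lower on both slides (of all genes, 32% and 27.9%). That list does not hold Dnajc30, also mitochondrial, which was lower on both slides (-0.31 and -0.69) and is described with its class. Dnaja3 (Tid1), the DnaJ partner of mortalin, read 9.94 and 9.95 with sunitinib and 9.97 and 9.84 with vehicle on its brightest probe. Its second probe, of nearly the same brightness, read 9.94 and 9.83 with sunitinib and 9.15 and 9.36 with vehicle (difference 0.63, SE 0.11, adjusted p = 0.336). Dnajc15 and Dnajc19, linked to the inner membrane import motor, differed by 0.17 (SE 0.08) and 0.195 (SE 0.10), and Dnajc11 by 0.033 near background.

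Small heat shock proteins differed little, with a median of -0.085 over 7 genes (-0.05 on slide 1, 0 on slide 2). Of them, 5 (Hspb2, Hspb3, Hspb6, Hspb7, Hspb9) lay below the median level of all genes. Hspb1 (HSP25 in the mouse), an actin-protecting holdase, read 13.01 and 13.54 under sunitinib against 13.08 and 13.33 under vehicle, so that the sunitinib values enclosed the vehicle values (difference 0.07, SE 0.20, adjusted p = 0.889). Hspb8, a partner of Bag3 in selective autophagy, read 9.60 and 9.40 in sunitinib samples against 9.63 and 9.68 in vehicle samples (difference -0.155, SE 0.10). Hspb2, Hspb3, Hspb6 and Hspb7 are best known from muscle. Skeletal muscle markers (14 of 14 measured, 10 below the median level) had array medians of 9.36 and 8.78 in sunitinib samples against 9.23 and 8.35 in vehicle samples, and their part in these values was not tested. Of the heat shock factors, Hsf2, Hsf3 and Hsf4 were near background with differences of -0.045, 0.005 and 0.10, and Hsf1 was not analysed here. The class median was -0.02 on slide 1 and 0.03 on slide 2. Hsf2bp and Hspb11, an Hsf2 partner and an intraflagellar transport protein that match by symbol, differed by 0.095 and -0.005.

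**Figure D3:**
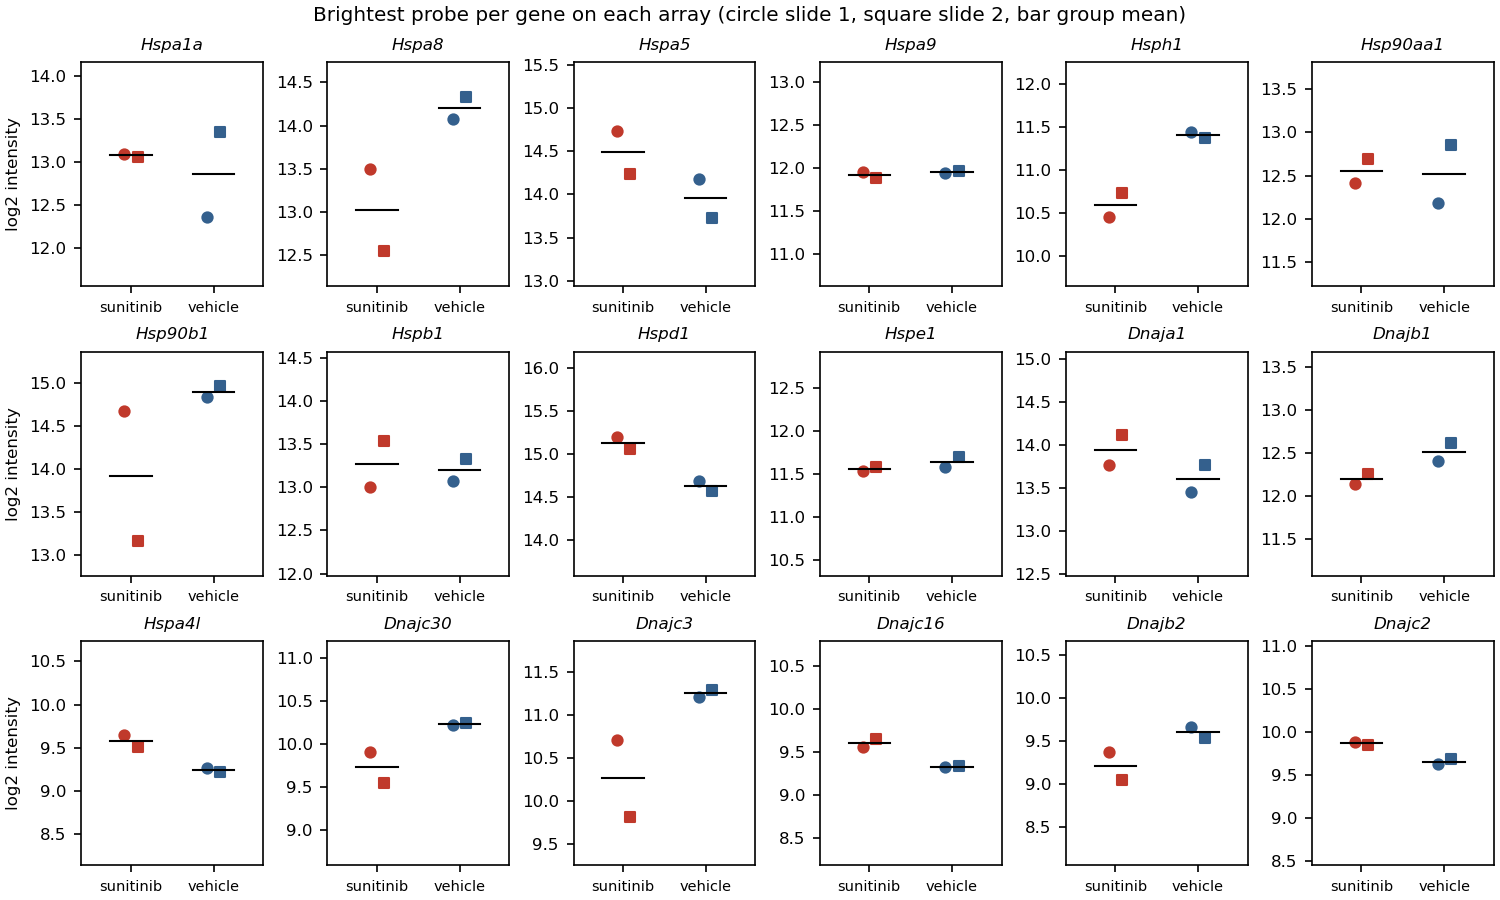
Log2 intensity (y axis, the same span in every panel) of the brightest probe of 18 named genes in the sunitinib and vehicle groups, with slide 1 as circles, slide 2 as squares and group means as bars. Hspd1, Hspa4l and Dnajc16 are higher in both sunitinib arrays, Hsph1, Dnajb1 and Dnajc30 lower, and Hspa1a and Hsp90aa1 overlap, with the vehicle arrays far apart.

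DNAJA proteins, full-length partners of HSP70, had a median difference of 0.087 over 4 genes (0.02 on slide 1, 0.155 on slide 2). Dnaja1 read 13.77 and 14.11 with sunitinib and 13.45 and 13.76 with vehicle, where the nearest values almost met (difference 0.335, SE 0.17, adjusted p = 0.418). The difference was 0.165 without sunitinib replicate 2, 0.18 without vehicle replicate 1 and 0.505 without sunitinib replicate 1. Its dimmer probes differed by -0.09 and -0.11. Dnaja2 differed by 0.135 (SE 0.09) and Dnaja4 by -0.16 (SE 0.11) near background.

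DNAJB genes had a median of -0.075 over 13, with 3 higher and 6 lower on both slides (of all genes, 32% and 27.9%). Dnajb1 (HSP40), the main stress-induced partner of HSP70, read 12.14 and 12.25 under sunitinib against 12.41 and 12.61 under vehicle (difference -0.315, SE 0.11, limma adjusted p = 0.345). Both sunitinib arrays were lower, though its second probe, at 10.57 and 10.75 in sunitinib arrays against 10.49 and 10.76 in vehicle arrays, overlapped (difference 0.035). Dnajb2, which hands clients to the proteasome, read 9.37 and 9.05 with sunitinib and 9.67 and 9.54 with vehicle (difference -0.395, SE 0.14, adjusted p = 0.346), and differed by -0.235 without sunitinib replicate 2. Dnajb11 (ERdj3), an ER partner of Hspa5, read 11.36 and 11.49 in sunitinib samples against 10.84 and 11.31 in vehicle samples (difference 0.35, SE 0.17, adjusted p = 0.418), higher in both sunitinib arrays by a narrow margin. Dnajb9 (ERdj4) read 9.55 and 9.56 in sunitinib samples against 9.71 and 9.74 in vehicle samples (difference -0.17), with its next probe at 0.245. Dnajb6, an inhibitor of polyglutamine aggregation, differed by 0.125 on its brightest probe and by -0.79 and -0.355 on the others. Dnajb3, Dnajb7, Dnajb13 and Dnajb14 were near background.

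DNAJC genes, the most diverse class, had a median of 0.012 over 28 (0.015 on slide 1, 0.02 on slide 2). On both slides 9 were higher and 7 lower, against 32% and 27.9% of all genes. Dnajc3 (p58IPK), an ER co-chaperone that also restrains the stress kinase PERK, read 10.71 and 9.82 with sunitinib and 11.21 and 11.29 with vehicle (difference -0.985, SE 0.29, limma adjusted p = 0.34). The difference was -0.5 on slide 1 and -1.47 on slide 2, and -0.54 without sunitinib replicate 2. The other 3 Dnajc3 probes differed by -0.09, -0.065 and -0.11, so that the size rested on 1 probe. Dnajc30, a mitochondrial protein that interacts with ATP synthase, read 9.91 and 9.55 under sunitinib against 10.22 and 10.24 under vehicle (difference -0.50, SE 0.14, adjusted p = 0.339), and the difference was -0.32 without sunitinib replicate 2. Dnajc16 read 9.56 and 9.65 in sunitinib arrays against 9.32 and 9.34 in vehicle arrays (difference 0.275, SE 0.08, adjusted p = 0.341), and the difference was 0.136 once a trend with position on the array was removed. Its other 3 probes differed by 0.055, -0.165 and -0.12, and the mean of all its probes by 0.011. Dnajc2 (Zrf1), a ribosome-associated and chromatin-binding member, read 9.88 and 9.85 with sunitinib and 9.62 and 9.68 with vehicle (difference 0.215, SE 0.08, adjusted p = 0.36). Its second probe differed by -0.27, and the position-corrected difference was 0.061. The remaining 24 lay between -0.225 and 0.195.

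The 8 ER members went in both directions, with a median of -0.11, 2 higher (Hspa5, Dnajb11) and 4 lower on both slides (of all genes, 32% and 27.9%). That median was -0.032 without vehicle replicate 1 and -0.172 without sunitinib replicate 1. Of 14 other ER stress genes, 3 read higher and 0 lower at an unadjusted p under 0.05, against 8.38% and 6.28% of all genes. Their median was 0.18 (0.105 on slide 1, 0.175 on slide 2), with 8 higher and 3 lower on both slides (of all genes, 32% and 27.9%). Both sunitinib arrays lay above both vehicle arrays for 8 of them and below for 2 (of all genes, 25.9% and 22.3%). Pdia4, a disulfide isomerase, read 13.46 and 13.11 in sunitinib samples against 11.88 and 12.69 in vehicle samples (difference 1.00, SE 0.29, adjusted p = 0.34), 1.58 on slide 1 and 0.42 on slide 2. Chac1, a glutathione-degrading enzyme induced late in the response, differed by 0.36 (SE 0.10), and Creld2 by 0.335 (SE 0.12). Pdia6, another isomerase, read 13.76 and 12.34 with sunitinib and 14.06 and 14.09 with vehicle (difference -1.025, SE 0.46), low in sunitinib replicate 2 like Hsp90b1.

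The stress-inducible members, 11 of 13 measured, likewise had no common direction. Their median was 0.07, but -0.04 on slide 1 and -0.12 on slide 2. At an unadjusted p under 0.05, 2 of the 11 were higher (Hspd1, Hspa4l) and 3 lower (Hspa8, Hsph1, Dnajb1), against 8.38% and 6.28% of all genes. The list holds Hspa8 although that gene is mainly constitutive, and its probes opposed each other. Hsph1 had only 1 probe, so that no other probe could repeat or oppose its difference. The second Dnajb1 probe, at 0.035, did not repeat the decrease, and the mean of the Dnajb1 probes differed by -0.14. The median lay between -0.14 and 0.195 without any 1 array. Immediate early genes (12 of 12 measured), which respond to stress and tissue handling, had a median of -0.36, with 6 lower and 0 higher at that threshold and array medians of 10.855 and 10.695 under sunitinib against 11.315 and 10.62 under vehicle. Fibroblast markers (10 of 10) had a median difference of -0.303 with array medians of 13.675 and 13.615 in sunitinib samples against 14.375 and 13.74 in vehicle samples, and adipocyte markers (11 of 12) one of 0.685 with medians of 10.02 and 10 in sunitinib arrays against 9.28 and 8.83 in vehicle arrays. Those of endothelium (10 of 10), macrophages (8 of 10) and smooth muscle (8 of 8) had medians of 0.069, -0.008 and 0.012. At an unadjusted p under 0.05, 3 fibroblast markers were lower and 6 adipocyte markers higher. Of the endothelial and macrophage markers 1 each was lower, and of the smooth muscle markers 1 was higher and 1 lower. The shares of all genes are those given above for the stress-inducible members. The part of these cell types in the chaperone differences was not tested.

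Co-chaperones outside the rule were measured for 27 of 27 genes, with a median of 0.005. At an unadjusted p under 0.05, 4 were higher and 3 lower, against 8.38% and 6.28% of all genes. Fkbp5, an immunophilin of the HSP90 complex that glucocorticoids induce, read 10.04 and 10.14 in sunitinib samples against 9.56 and 9.28 in vehicle samples (difference 0.67, SE 0.12, adjusted p = 0.336). The HSP90 co-chaperone p23, Ptges3, read 12.92 and 13.17 with sunitinib and 12.55 and 12.69 with vehicle (difference 0.425, SE 0.12, adjusted p = 0.339). Bag6, which guides tail-anchored proteins, differed by 0.49 (SE 0.13) and the nucleotide exchange factor Bag5 by -0.59 (SE 0.18). In the cytosolic chaperonin TRiC, which folds actin and tubulin, the 8 subunits of 1 complex read apart, with a median of -0.038. Cct4 read 14.32 and 14.52 with sunitinib and 13.86 and 13.98 with vehicle (difference 0.50, SE 0.11, adjusted p = 0.336) and Cct2 differed by 0.30 (SE 0.11), while Cct8 differed by -0.525 (SE 0.28) and Cct7 by -0.125.

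Probes of the same gene often disagreed. Of 39 members with more than 1 probe, 16 (41.0%) had a probe at least 0.1 higher and another at least 0.1 lower, against 24.2% of 8195 genes with more than 1 probe. The cut of 0.1 is close to the SE of many probes, and the comparison was not matched for the number of probes per gene. Over all 141 probes, 9 were higher and 12 lower at an unadjusted p under 0.05, where 7.72% and 6.05% of all probes were. Chosen after the values were seen, sunitinib replicate 2 lay at least 0.5 below all 3 other arrays on 5 member probes, 1 each of Hspa8, Hsp90b1, Dnajc3, Dnajc1 and Dnajb6. This is 3.55% of the member probes, against 1.89% of all probes on that array and 0.174% to 0.617% of all probes on the others. Vehicle replicate 2 lay that far above the others on 2 member probes, both of Hspa1a (1.42%, against 0.199% of all probes). Vehicle replicate 1 lay that far below the others on 2 member probes, 1 each of Hspa1a and Dnajb12 (1.42%, against 0.617% of all probes). Sunitinib replicate 1 lay that far above them on 1 probe of Hspa5 (0.709%, against 0.234% of all probes). Sunitinib replicate 2 did so on 1 probe of Hspa12a (0.709%, against 0.272% of all probes).

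**Figure D4:**
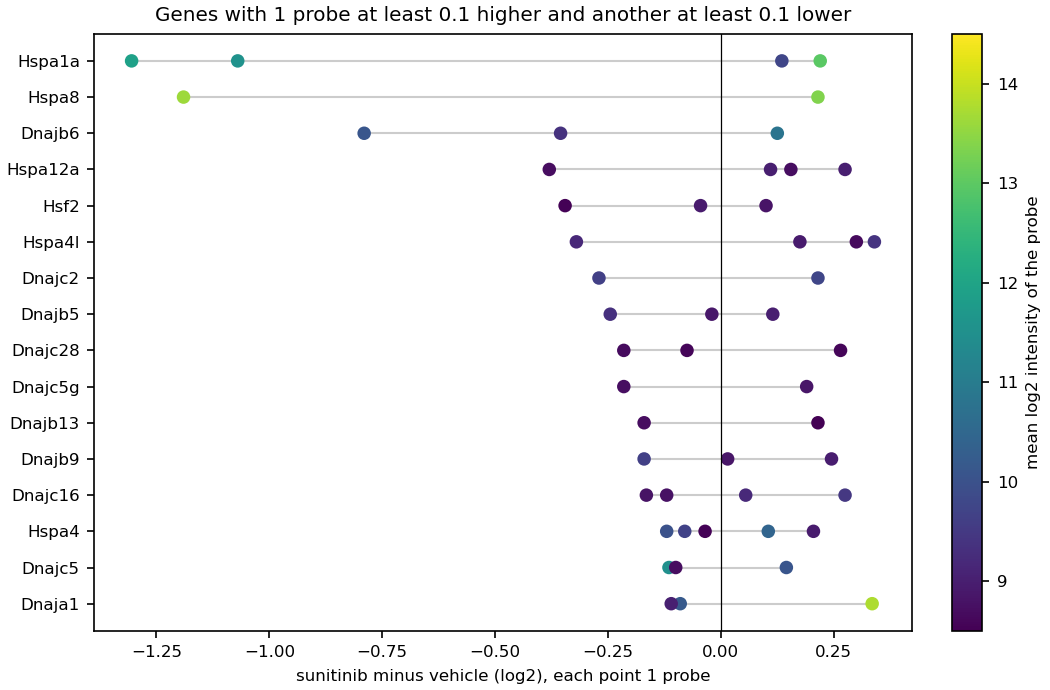
Sunitinib minus vehicle difference (log2, x axis) of each probe (point) of the 16 chaperone genes with a probe at least 0.1 higher and another at least 0.1 lower, coloured by the probe's mean log2 intensity. The widest spans are those of Hspa1a (-1.305 to 0.22) and Hspa8 (-1.19 to 0.215), whose opposing probes are both bright.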

How the data were processed

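RNA of 4 xenograft samples was hybridised to single-colour Agilent arrays. The authors deposited 1 log2 value per feature and array, and the submitters' processing notes name limma without a version. How background and normalization were handled is not stated in the labels or notes. The range of the values (6.75 to 16.34) is that of a log2 scale, and array medians of 8.89 or 8.90 show that arrays were already scaled to each other. With 4 arrays, precision is limited by their number. No detection flags were used.

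Gene names came from the platform's annotation, with symbols updated through RefSeq. Of 45220 features, 33653 had 1 gene, 56 several and 11511 were not listed. The features with 1 gene were tested, with 8 or more spots of 1 gene and accession combined by their median. limma 3.58.1 (R 4.3.3; lmFit, eBayes) fitted treatment as the single factor, with Benjamini-Hochberg adjustment over 31587 probes. The brightest probe represented a gene. The fit was tested on simulated data. Whether the replicates came from separate animals is not labelled, and p-values then measure only the spread between these samples.

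The members and gene lists were chosen with earlier results of these data known. Named in full were 12 sentinel chaperones and 6 other members with an unadjusted p under 0.05 and no overlap, together with up to 4 genes of smallest p from the other pathway lists. Hspa1b, Hsp90ab1 and Hsf1, also on that list, were not analysed here.

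By their titles, same-numbered arrays shared a slide, which pairs them. Deviations from group means correlated at -0.225 between arrays of a slide. The slide as a block was an alternative, as were quantile normalization, median centring, the mean of all probes, leaving out probes under the 30th percentile, a floor at the 5th percentile, a trended robust prior, single spots, removal of a position trend (running median over 21 by 21 features) and leaving out each array. Block and left-out fits have 1 residual degree of freedom against 2.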

Additional observations from a re-analysis of the deposited data

How the results depend on the processing

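In limma 0 members passed under any of the 14 alternatives (lowest adjusted p among the 18 named genes 0.275), with 4 higher and 6 lower members at an unadjusted p under 0.05 in the fit as reported. With the slide as a replicate block these counts were 5 and 6 (of all genes, 5.77% were higher and 4.17% lower), with Hspa5 and Dnaja1 under that threshold and Dnajc2 not, and no call at an adjusted p changed. With the position trend removed as well they were 4 and 7, against 4.94% and 4.87% of all genes. The count of higher members was 2 with all probes of a gene averaged, against 7.03% of all genes, and 2 with the position trend removed, against 6.08%. Each fit without 1 array leaves 1 array in a group, so that counts of members under that threshold are not given for these fits.

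Medians moved by more than the spread between replicates in the following cases. With the mean of all probes they were -0.007 (all members), 0.015 (HSP110), 0.023 (DNAJB) and 0.178 (mitochondrial members). Without dim probes they were 0.02 (all members) and 0.045 (small HSP), and with a floor -0.02 (small HSP). With single spots the mitochondrial median was 0.17, and with the position trend removed, with or without the replicate block, it was 0.006 and the HSF median 0.134. Without any 1 array the medians ranged from 0.005 to 0.023 (all members), -0.105 to 0.035 (DNAJB), -0.13 to -0.025 (small HSP) and 0.005 to 0.1 (mitochondrial members).

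Of 252 values of named genes under the alternatives, 9 changed sign. With the mean of all probes Hspa1a was at -0.505, Hspa9 at 0.178 and Dnajc2 at -0.027. Without any 1 array Hspa1a ranged from -0.275 to 0.715, Hspa9 from -0.065 to 0.005, Hsp90aa1 from -0.3 to 0.37 and Hspb1 from -0.195 to 0.335. The cause was not tested. Dim probes limit what can be seen of the heat shock factors and most small heat shock proteins.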

Other observations

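Some dimmer probes of ER co-chaperones, chosen after their values were seen, read lower with sunitinib while the brightest probe of the gene did not. The dimmest probe of Dnajc1 (ERdj1) read 8.94 and 8.88 in sunitinib samples against 9.21 and 9.25 in vehicle samples (difference -0.32, SE 0.08, limma adjusted p = 0.336), against 0.015 on its brightest. The dimmest probe of Dnajc10 (ERdj5), a disulfide reductase, read 9.03 and 8.80 with sunitinib and 9.36 and 9.20 with vehicle (difference -0.365, SE 0.12, adjusted p = 0.341), against -0.05 on its brightest. Both probes lay near the median level of all genes, and with the position trend removed they differed by -0.21 and -0.22. Other dimmer ER probes took both directions. The second was at 0.245 for Dnajb9, -0.555 for Dnajc1 and 0.055 for Dnajc10, and the third of Dnajc10 at -0.035. Whether dimmer probes read other transcripts of a gene was not tested.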
